A study of Mus musculus with 12 samples.

Results

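The 8 genes Gabra2, Gabra3, Gabra4, Gabra5, Gabrb1, Gabrb2, Gabrg1 and Gabrg3 encode subunits of the GABA-A receptor and were taken as a listed set from the 23513 genes of single nucleus RNA sequencing (snRNAseq) of the E14 mouse cortex. They were described in 25 clusters of nuclei and 11 embryos. The 5 saline embryos (S1-1, S1-2, S2-1, S2-2 and S2-4) came from the C57BL/6J dams S1 and S2, which were injected intraperitoneally with saline once daily from neurulation into neurogenesis, and the 6 EtOH embryos (E1-1, E1-2, E2-1, E2-2, E2-3 and E2-4) came from the C57BL/6J dams E1 and E2, which were injected with EtOH in the same way. All embryos therefore shared the injections, and the cortices of both hemispheres were frozen before nuclei were isolated. The labels put S1 and E1 embryos in batch 1 and those of S2 and E2 in batch 2, so each batch held both treatments, and a further embryo labelled as saline was not used here. With 2 dams per treatment, p-values measure the spread between embryos, which includes littermates.

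The GABA-A receptor is a pentameric chloride channel that opens when the transmitter GABA binds between an alpha and a beta subunit. Most receptors join alpha and beta subunits with a gamma subunit, which takes part in anchoring at synapses and in binding benzodiazepines. In the embryonic cortex, GABA acts on progenitors and migrating neurons before most synapses exist, and it depolarizes many of these cells because their chloride content is high. Among the members, Gabra5 is known for receptors outside synapses, Gabra4 for such receptors in thalamus and striatum, and Gabra2 and Gabra3 for alpha subunits that are prominent before birth.

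Several members lie side by side in the genome. On GRCm38 (GENCODE M21), Gabrg1 (chr5:70751047-70842617, minus strand), Gabra2 (chr5:70957597-71095849, minus strand), Gabra4 (chr5:71569749-71658308, minus strand) and Gabrb1 (chr5:71658113-72149037, plus strand) stand in 1 row on chromosome 5. Gabrg3 (chr7:56716465-57387188, minus strand) and Gabra5 (chr7:57407672-57510059, minus strand) are neighbours on chromosome 7, Gabrb2 is on chromosome 11 (chr11:42419757-42629028, plus strand) and Gabra3 on chromosome X (chrX:72432681-72656848, minus strand). Gabra4 and Gabrb1 overlap at their 5′ ends by 196 bp, on opposite strands. The antisense genes Gm9962 and Gm38562 lie in Gabra5 and Gabrb1 on the opposite strand. The study ran Cell Ranger with default parameters and gives no strand setting, so the levels of Gabra5 and Gabrb1 are uncertain to that extent.

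The bases just upstream of 3 starts are shown for their unlike CG content, given as RefSeq has them on GRCm38.p6, 5′ to 3′ on the gene's strand with each CG in capitals. The stretch of Gabra2 is chr5:71095850-71096099 (minus strand), that of Gabra3 is chrX:72656920-72657169 (minus strand), and that of Gabra4 is the part of its upstream window that lies outside the exons of Gabrb1, in an intron of that gene, chr5:71658364-71658558 (minus strand).
Gabra2: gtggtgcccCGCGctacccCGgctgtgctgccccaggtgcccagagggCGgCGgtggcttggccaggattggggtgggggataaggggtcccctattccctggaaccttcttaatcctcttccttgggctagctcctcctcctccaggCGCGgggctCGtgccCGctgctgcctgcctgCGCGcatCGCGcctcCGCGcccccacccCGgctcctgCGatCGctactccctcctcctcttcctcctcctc
Gabra3: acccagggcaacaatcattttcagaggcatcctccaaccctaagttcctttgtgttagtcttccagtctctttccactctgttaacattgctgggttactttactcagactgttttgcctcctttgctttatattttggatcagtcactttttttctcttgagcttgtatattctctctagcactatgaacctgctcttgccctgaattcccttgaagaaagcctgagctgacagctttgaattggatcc
Gabra4: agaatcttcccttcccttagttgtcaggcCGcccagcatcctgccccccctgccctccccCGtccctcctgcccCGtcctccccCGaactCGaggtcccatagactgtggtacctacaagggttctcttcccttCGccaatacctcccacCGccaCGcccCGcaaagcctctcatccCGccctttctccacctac
RefSeq lists 2 starts for Gabra3 and for Gabrb1 and 3 for Gabrb2, of which only the start farthest upstream was used. Counted over the 250 bases before that start, CG stood 18 times for Gabra2 and for Gabrb1, 12 times for Gabra4, 9 times for Gabra5 and for Gabrg3, 8 times for Gabrb2, once for Gabrg1 and 0 times for Gabra3. Of all RefSeq promoters of this length, 7.87% held 0 CG and 21.7% held at least 18. CG reads the same on both strands, so 1 strand was counted. These counts describe the sequence and nothing about its use in these nuclei.

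The 50550 nuclei held 44017566 to 83061737 UMIs (counted molecules) per saline embryo and 14078316 to 38034349 per EtOH embryo, so that values of EtOH embryos rest on fewer counts. Levels are CPM, the UMIs of a gene summed over an embryo's nuclei of a cluster and scaled to 1 common total, and were used with at least 10 nuclei. The authors' clusters were grouped as radial glial cells (RGC, Clusters 2, 3, 12, 20 and 21), intermediate progenitors (IPC, 6 and 17), projection neurons (PN, 1, 4, 8, 9, 16, 22, 24 and 25), interneurons and their precursors (Int, 5, 7, 10, 13, 15, 18 and 23) and others (striatal interneurons 11, Layer I 14 and the unknown 19). After thinning each nucleus to 2000 UMIs, the markers Eomes, Gad2, Neurod2 and Hes1 were found in the highest share of nuclei of IPC (48.8%), Int (74.7%), PN (32.2%) and RGC (13%), respectively. Marker lists of endothelial cells (5.58 to 10.9 CPM over embryos), microglia (14.4 to 35.8 CPM) and pericytes (4.42 to 7.93 CPM) were low but at 0 for none of their genes. Those of red cells (4.15 to 58.9 CPM) and of thalamus (Ntng1 and Gbx2, 72.2 to 236.3 CPM) reached higher levels. The part of such cells in the levels below was not tested. Saline embryo S2-4 stood apart: over the genes of all nuclei, its median absolute log2 difference from the other saline embryos was 0.14, the highest of the 11, followed by S2-2 at 0.13, and EtOH embryos lay between 0.06 and 0.10. Depth per nucleus differed with treatment, and S2-4, with a median of 6325 UMIs per nucleus, had the depth of EtOH embryos (4071.5 to 6911 UMIs) and not that of the other saline embryos (8365 to 9051 UMIs). The part of depth in the results below was not tested beyond the thinned nuclei. Littermates of dam S2 also differed most, with a chi-square per gene of 45.0 to 82.8 against 4.03 to 11.3 for the other dams. Barcodes shared by 2 libraries numbered at most 18.

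Among the major cell types, the alpha subunit Gabra2 had its highest mean level in projection neurons, above interneurons by less than the SD in PN. Its level was 380.1 CPM ± 59.7 (SD, n = 11 embryos) in PN, 347.1 ± 36.9 in Int, 238.7 ± 33.9 in the other clusters, 169.6 ± 42.8 in RGC and 166.6 ± 57.7 in IPC. Among clusters, caudal subcortical PN Cluster 16 held 1050 CPM ± 133 (n = 11), PN Cluster 25 held 919.3 ± 136 (n = 7) and PN Cluster 24 held 827.1 ± 259 (n = 10). Not all PN clusters were high, with 210.5 CPM ± 38.5 in Cluster 9 and 120.2 ± 47.2 in Cluster 4 (n = 11). Non-mitotic RGC Cluster 12 was lowest at 75.7 CPM ± 24.7 (n = 11). Of the 24 neighbouring pairs in the order of clusters, 23 were separated by less than the larger of their SDs, and only Clusters 24 and 18 by more.

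Gabra3 had its highest value in Cluster 19, and among the major cell types its highest mean level in interneurons. The level was 93.1 CPM ± 10.8 in Int, 60.9 ± 12.4 in the other clusters, 49.1 ± 6.07 in PN, 28.2 ± 7.67 in RGC and 21.3 ± 4.89 in IPC (SD, n = 11). Cluster 19 held 174.7 CPM ± 23.2, above interneuron Cluster 7 with 147.4 ± 15.6 in 11 of 11 embryos, and early PN Cluster 9 was lowest at 15.9 ± 4.60. PN Clusters 25 (143.0 CPM ± 48.8, n = 7), 22 (104.2 ± 17.6) and 24 (101.8 ± 31.0, n = 10) lay among the leading interneuron clusters. Int Cluster 10 held 28.2 CPM ± 12.9. In 22 of 24 neighbouring pairs the gap was under the larger SD, the exceptions being Clusters 19 and 7, and Clusters 18 and 5.

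Among the major cell types, Gabra4 had its highest level in radial glia, carried by Clusters 2 and 21, while RGC Cluster 3 held 6.56 CPM ± 2.2. RGC held 39.3 CPM ± 12.3, other clusters 19.7 ± 8.08, Int 19.3 ± 4.52, PN 12.4 ± 2.88 and IPC 9.65 ± 3.96 (SD, n = 11). RGC Cluster 2 held 67.0 CPM ± 20.9 and Cluster 19 held 67.3 ± 47.8, with Cluster 19 the higher in 5 of 11 embryos. No pair of neighbours among the 24 was separated by more than the larger SD.

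Gabra5 was low in progenitors and in some clusters of PN and Int. IPC held 1.53 CPM ± 0.85 and RGC 2.48 ± 0.53, against 27.0 ± 5.92 in other clusters, 24.5 ± 5.09 in Int and 22.3 ± 4.37 in PN (SD, n = 11). PN Clusters 1, 9 and 16 held 2.9, 2.0 and 4.6 CPM, and Int Clusters 10 and 23 held 2.5 and 2.4 CPM. PN Cluster 25 held 139.0 CPM ± 35.8 (n = 7), above Cluster 24 with 64.0 ± 38.4 (n = 10) in the 6 of 6 embryos with enough nuclei of both. The lowest, Cluster 17, held 15 Gabra5 UMIs in all, and 3 of 24 neighbouring pairs were separated (25 and 24, 7 and 4, 15 and 13).

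The beta subunits divided the cell types differently. Gabrb1 had similar mean levels in radial glia and interneurons, with 266.0 CPM ± 79.3 in RGC, 260.5 ± 54.6 in Int, 233.0 ± 57.6 in other clusters, 168.5 ± 35.7 in PN and 96.8 ± 17.4 in IPC (SD, n = 11). Its leading cluster was PN Cluster 25 with 1099 CPM ± 224 (n = 7), followed by Cluster 19 (612.7 ± 226) and cortical hem RGC Cluster 21 (603.1 ± 132, n = 10), and only Clusters 25 and 19 were separated by more than the larger SD.

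Gabrb2 was higher in the neuronal than in the progenitor types: 260.3 CPM ± 35.1 in Int, 241.2 ± 38.1 in other clusters and 199.4 ± 25 in PN stood against 49.0 ± 15.9 in RGC and 41.1 ± 16.4 in IPC (SD, n = 11). Interneuron Cluster 15 (715.9 CPM ± 100.1) and callosal PN Cluster 22 (627.2 ± 112.2) led, in this order in 7 of 11 embryos, and mitotic IPC Cluster 17 was lowest (31.9 ± 14.3). Within PN, Gabrb2 ranged from 44.1 CPM ± 17.9 in Cluster 9 to the level of Cluster 22. Separated neighbours were Clusters 22 and 18, 18 and 4, and 10 and 3.

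The gamma subunits both had their highest level among the major cell types in interneurons, while the leading cluster of Gabrg3 was a PN cluster. Gabrg1 held 27.5 CPM ± 4.45 in Int, 11.5 ± 2.30 in RGC, 7.70 ± 3.75 in other clusters, 5.86 ± 2.08 in IPC and 5.16 ± 1.31 in PN (SD, n = 11). Interneuron Clusters 18 (79.6 CPM ± 20.5) and 15 (65.3 ± 24.5) led, and callosal PN Cluster 1 was lowest (1.90 ± 0.96), with 0 of 24 neighbouring pairs separated. Gabrg3 held 357.4 CPM ± 41.4 in Int, 291.7 ± 57.5 in other clusters, 55.5 ± 13.1 in PN, 47.7 ± 14.6 in RGC and 18.9 ± 11.2 in IPC. PN Cluster 25 held the highest Gabrg3 level of the 25 clusters, at 691.0 CPM ± 241 (n = 7), against 81.1 ± 23.1 in PN Cluster 8, the next of the PN clusters. Interneuron Cluster 7 followed it with 564.4 CPM of Gabrg3 ± 100.5 (n = 11), and the ranges of these clusters over embryos overlapped. These levels have no test, since the clusters were formed from the same nuclei and genes.

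**Figure D1:**
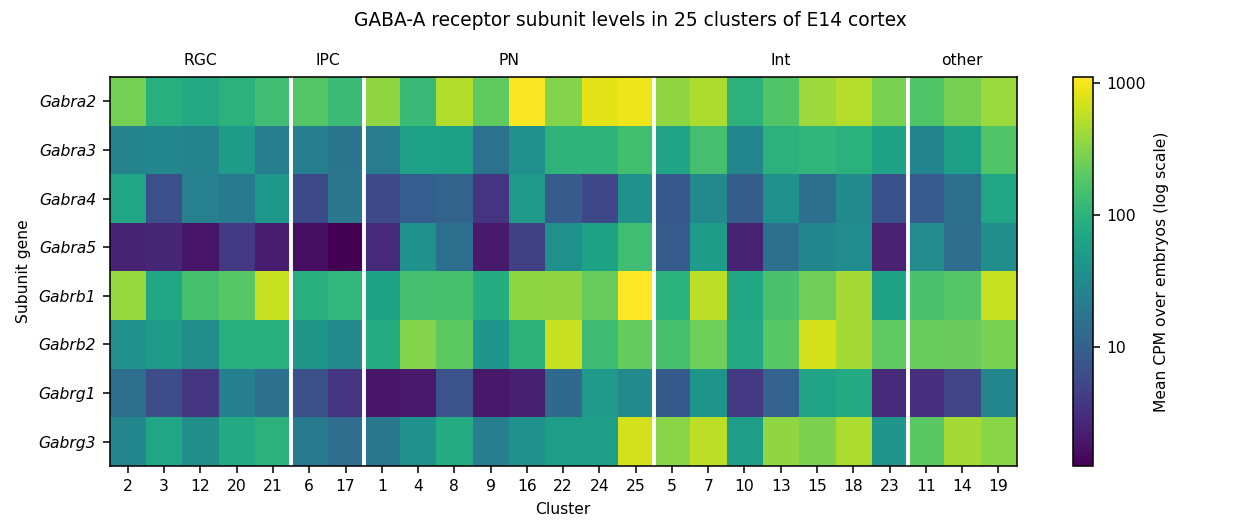
Mean CPM over embryos (colour, log scale) of the 8 subunit genes (rows) in the 25 clusters (columns, grouped by major cell type). Compared within its row, each of Gabra4 and Gabrb1 is bright in RGC Clusters 2 and 21, and each of Gabrg3 and Gabra3 in the interneuron Clusters 7, 13, 15 and 18. The scale is common to all genes, and in Cluster 2 Gabra4 (67.0 CPM) is dimmer than Gabra2 (264.4 CPM) and Gabrb1 (387.9 CPM). PN Cluster 25 is bright for most genes.

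Clusters also differed in which alpha gene supplied the UMIs of the 4 alpha members. A share of UMIs can be compared for 1 gene between clusters, but not between genes, since UMIs were not scaled to length. Gabra2 made up 92.0% ± 2.0 of alpha UMIs in callosal PN Cluster 1, 91.8% ± 2.12 in Cluster 16 and 90.4% ± 3.95 in Cluster 9, and 50.2% ± 9.03 in rostral subcortical PN Cluster 4 (SD, n = 11). In Cluster 4, Gabra5 made up 18.7% ± 5.75 and Gabra3 27.0% ± 4.22, against 0.74% ± 0.48 and 5.80% ± 1.40 in Cluster 1. The 2 PN clusters did not overlap in any of these 3 shares. Gabra4 reached 23.1% ± 12.2 (n = 10) in cortical hem RGC Cluster 21, 19.3% ± 9.11 in Cluster 12 and 18.3% ± 4.31 in Cluster 2, but 5.55% ± 2.18 in RGC Cluster 3, which the paper proposes may be interneuron precursors.

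**Figure D2:**
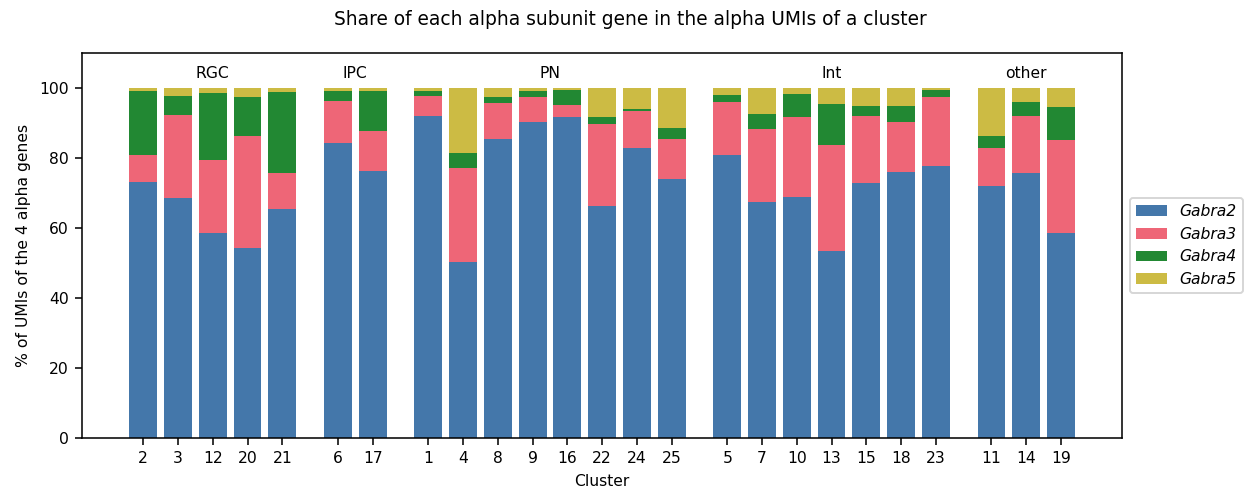
Percent of the UMIs of 4 alpha genes that each gene supplied (stacked bars, mean over embryos) in the 25 clusters, grouped by major cell type. Gabra2 exceeds 90% in PN Clusters 1, 9 and 16, Gabra5 is widest in PN Cluster 4, and Gabra4 is widest in RGC Clusters 2, 12 and 21.

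The share of nuclei with at least 1 UMI was compared at 2000 UMIs per nucleus, with the share over all UMIs beside it. Gabra2 was detected in 75.1% ± 10.5 of nuclei of Cluster 25 (99.3% over all UMIs, n = 7) and Gabrb1 in 76.4% ± 11.3 (97.9%). Gabrg3 was detected in 60.3% ± 14.0 of the same nuclei (89.4%) and Gabra5 in 23.3% ± 10.9 (75.7%). Nuclei of Cluster 25 were the deepest of the 25 clusters, with a median of 19112 UMIs per nucleus. Gabrb2 reached 58.8% ± 10.6 in Cluster 22 (85.4%), Gabra3 26.3% ± 6.62 in Cluster 19 (66.2%), Gabra4 11.5% ± 4.04 in Cluster 2 (28.2%) and Gabrg1 8.87% ± 3.13 in Cluster 18 (19.7%). UMIs of a gene can also come from free RNA or from doublets. Gad2, the GABA-synthesizing enzyme of interneurons, was found in 5.64% ± 4.09 of thinned PN nuclei (16.8% over all UMIs), where the median depth was 7630 UMIs, and Neurod2 in 3.54% ± 0.93 of thinned Int nuclei (11.8%), with a median of 7445 UMIs. The Gad2 share in PN was 8.82% ± 4.21 in saline and 2.98% ± 0.83 in EtOH embryos, in RGC 12.7% ± 4.41 and 7.20% ± 1.36, and in IPC 10.8% ± 3.88 and 5.93% ± 0.73. Low shares of members in these types were 0.40% ± 0.21 for Gabra5 in RGC, 0.66% ± 0.27 for Gabrg1 in PN, 4.85% ± 1.51 for Gabra3 and 6.34% ± 2.06 for Gabra4 in RGC, and 6.48% ± 3.20 for Gabrb2 in IPC. With a mean of 960.4 CPM in Int of saline and 962.4 CPM of EtOH embryos, Gad2 was far more abundant in interneurons than Gabra3, Gabra5 or Gabrg1, so its share does not measure the free RNA of these genes. The part of free RNA, doublets or low expression in any of these shares was not tested.

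For each member, the genes with the most similar levels over the 25 clusters were sought among 11621 genes, by Pearson's r of mean log2(CPM + 1). The points share the embryos and libraries, and r is a description. Gabra4 was most like its head-to-head neighbour Gabrb1 (r = 0.76), followed by Mcu and Sptb (both 0.72). Gabrb2 was most like Gm38304 (0.94) and Dnm3 (0.94). Gabra5 followed Adap1 (0.95), Sgcz (0.95) and Pakap (0.94), and Gabra3 followed Gm29514 (0.94), Nwd2 (0.93) and Tmem130 (0.92). For Gabrg3 the leading genes were Gm44643 (0.88), Hcn2 (0.88) and Syne1 (0.88), and for Gabrb1 Ankrd24 (0.87), Tjp1 (0.86) and Mboat7 (0.83). Gabrg1 (Galnt13, 0.82, Sfmbt2, 0.82, and Pld5, 0.81) and Gabra2 (Coro1a, 0.82, Pgbd5, 0.80, and Dgkq, 0.79) had less similar neighbours, and those of Gabra4 were the least similar of all members. Between members, r was highest for Gabra3 and Gabra5 (0.83) and lowest for Gabra4 and Gabrb2 (0.08).

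The comparison of EtOH with saline asks whether exposure during neurogenesis altered these genes within a cell type. No member was called higher, and 4 results passed the test (edgeR's quasi-likelihood test on counts summed per embryo, Benjamini-Hochberg adjusted p under 0.05 over all genes tested in that cluster or type, with a fold below 0.8 or above the inverse of 0.8), all lower in EtOH: Gabrb2 in PN Clusters 1 and 9, Gabra2 in RGC Cluster 12 and Gabra3 in RGC as a whole. Of 200 pairs of a member and a cluster, 168 had enough counts to be tested and 3 were called (1.79%), where 0.792% of all gene and cluster pairs tested were called in either direction. Of 39 tested pairs of a member and a major cell type, 1 was called (2.56%), against 3.75% of all. An unadjusted p under 0.05 was found for 31 pairs in clusters (18.5%) and for 17.4% of all pairs tested, and in major cell types for 7 pairs (17.9%) and for 27.7% of all. The median log2 fold change of the members in clusters was -0.08 and that of all genes 0.01, and 96 of the 168 were lower (57.1%, against 49.0% of all). In major cell types 31 of 39 were lower (79.5%, against 48.9%).

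**Figure D3:**
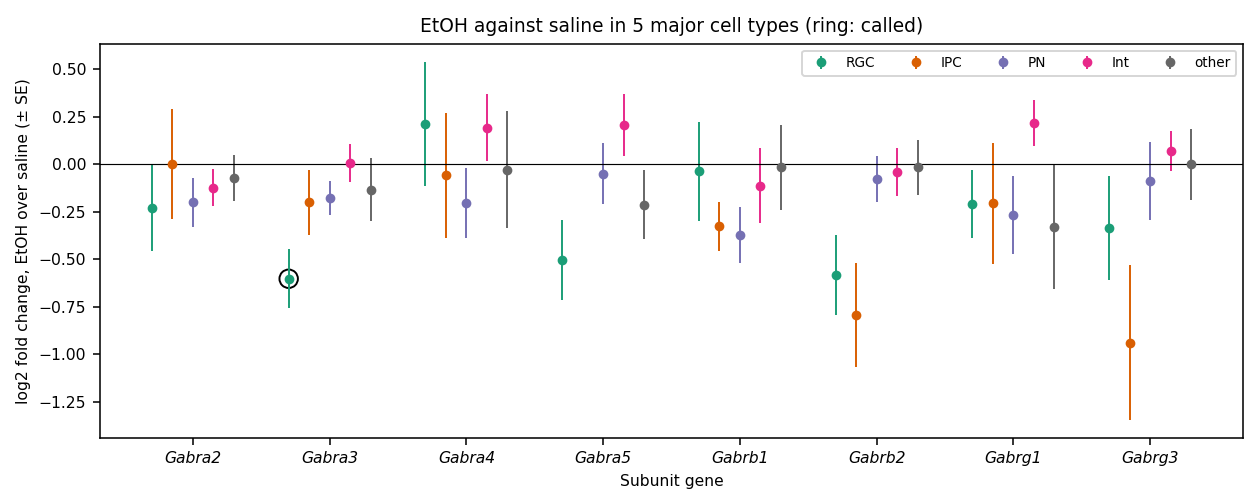
Log2 fold change of EtOH over saline (points, with SE from edgeR) for the 8 subunit genes in 5 major cell types, with 5 saline and 6 EtOH embryos. The ringed point, Gabra3 in RGC at -0.60, passed the test, and the Int points lie between -0.12 and 0.22.

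Gabrb2 fell in callosal PN Cluster 1 by 0.41 on the log2 scale (SE 0.10, edgeR adjusted p = 0.0425), where 1.69% of genes tested were called lower. Saline embryos S1-1, S1-2, S2-1, S2-2 and S2-4 held 100.8, 87.8, 114.1, 89.0 and 75.8 CPM of Gabrb2, and EtOH embryos E1-1, E1-2, E2-1, E2-2, E2-3 and E2-4 held 82.2, 78.6, 69.6, 69.4, 76.0 and 64.1 CPM. The groups overlapped through S2-4 alone, which lay below 3 EtOH embryos. The Gabrb2 change was -0.23 in batch 1 and -0.41 in batch 2, as log2 ratios of mean CPM, and -0.11 (edgeR adjusted p = 0.745) when every nucleus was thinned to 2000 UMIs, and it did not pass with counts summed per dam (-0.39, edgeR adjusted p = 0.157) or with the dam as a random block (-0.39, limma adjusted p = 0.0591). The share of thinned nuclei with a Gabrb2 UMI was 14.6% ± 2.84 in saline and 13.2% ± 1.64 in EtOH embryos. Without S2-4 the Gabrb2 change was -0.49 (edgeR adjusted p = 4.1e-04), and leaving out any other single embryo ended the call (edgeR adjusted p from 0.0537 to 0.120). Over all genes and clusters, 19059 of 217112 pairs were called without S2-4, against 1721 of 217253 with it.

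In early PN Cluster 9, Gabrb2 fell by 0.90 on the log2 scale (SE 0.21, edgeR adjusted p = 0.0463), where 0.799% of genes were called lower. The saline embryos, in the same order, held 66.7, 70.2, 67.6, 58.0 and 31.5 CPM of Gabrb2, and the EtOH embryos 35.7, 34.6, 33.1, 39.3, 22.03 and 26.6 CPM. Saline values other than that of S2-4 lay above all EtOH values, and S2-4 lay among the latter. Batch 1 gave a Gabrb2 change of -0.96 and batch 2 one of -0.79. Without S2-4 the change was -1.08 (edgeR adjusted p = 8.0e-06), without any other embryo it did not pass (edgeR adjusted p from 0.0764 to 0.124), and with batch as a block it was -0.82 (edgeR adjusted p = 0.0599). With the dam as a random block the Gabrb2 change was also -0.82 (limma adjusted p = 0.125), with counts summed per dam -0.89 (edgeR adjusted p = 0.0540) and in thinned nuclei -0.79 (edgeR adjusted p = 0.0956), so the call held in 4 of the 8 other settings that kept all embryos. Of these 4, the setting of at least 30 nuclei left out no embryo here and repeated the main fit. The share of thinned nuclei with a Gabrb2 UMI was 10.5% ± 2.76 in saline and 5.71% ± 1.01 in EtOH embryos.

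Gad2, a marker of interneurons, had overlapping levels in the treatments in both clusters and did not pass the test in either. Dlx1 overlapped in Cluster 1 but not in Cluster 9. There saline embryos held 4.16 to 7.65 CPM of Dlx1 and EtOH embryos 0 to 4.13 CPM. In Cluster 1 the summed level of Gad2 and Dlx1 was 26.5 to 83.7 CPM in saline and 17.8 to 41.4 CPM in EtOH embryos, and in Cluster 9 it was 32.8 to 97.5 CPM and 4.72 to 36.3 CPM, with Dlx1 at 0 in 1 EtOH embryo. Gad2 itself was at -1.01 in Cluster 1 (edgeR adjusted p = 0.147) and at -1.47 in Cluster 9 (edgeR adjusted p = 0.110), on the log2 scale. S2-4 had the lowest Gad2 of the saline embryos in both. Its Dlx1 was not the lowest: 5.99 CPM in Cluster 1, where saline embryos held 3.23 to 7.35 CPM, and 7.65 CPM in Cluster 9, the highest of the saline embryos. The part of interneuron RNA in the Gabrb2 results was not tested. In interneurons themselves Gabrb2 differed by -0.04 (SE 0.13, 95% interval -0.29 to 0.21, edgeR adjusted p = 0.876), and in PN as a whole by -0.07 (SE 0.12, interval -0.31 to 0.16, edgeR adjusted p = 0.704). Over the 25 clusters Gabrb2 was lower in EtOH in 14 and higher in 11, from -1.175 to 0.859. In PN Cluster 24 it did not pass the test, and EtOH embryos held 173.0 CPM ± 62.2 and saline embryos 99.1 ± 30.2 (SD, n = 5 each).

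In progenitors Gabrb2 did not pass the test and was at -0.58 in RGC (SE 0.21, edgeR adjusted p = 0.0958) and at -0.79 in IPC (SE 0.27, edgeR adjusted p = 0.117). In IPC the EtOH embryos held 27.1 to 38.4 CPM of Gabrb2 and the saline embryos 20.6 to 68.0 CPM, with S2-4 the lowest of all. DESeq2 called Gabrb2 lower in RGC and IPC, and counts summed per dam called it lower in RGC and in Clusters 3, 6 and 12. With no filter on low counts it was also called lower in Clusters 10 and 17. Without S2-4 Gabrb2 was at -0.71 in RGC (edgeR adjusted p = 0.0209) and at -1.005 in IPC (edgeR adjusted p = 5.9e-06). In that fit 11363 of 67429 pairs over all genes and major cell types were called. Whether the change of Gabrb2 differs between cell types was not tested.

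Gabra2 fell in non-mitotic RGC Cluster 12 by 0.79 on the log2 scale (SE 0.15, edgeR adjusted p = 0.0297), where 0.305% of genes tested were called lower. Saline embryos S1-1, S1-2, S2-1, S2-2 and S2-4 held 101.0, 75.3, 118.6, 104.9 and 82.2 CPM of Gabra2, and EtOH embryos E1-1, E1-2, E2-1, E2-2, E2-3 and E2-4 held 72.0, 72.7, 46.0, 49.99, 42.3 and 67.9 CPM. The groups did not overlap, although S1-2 and E1-2 lay close together. These levels rest on 19 to 54 UMIs per EtOH embryo and 104 to 248 per saline embryo. The share of thinned nuclei with a Gabra2 UMI was 15.9% ± 2.56 in saline and 9.11% ± 2.89 in EtOH embryos. The Gabra2 change was -0.28 in batch 1 and -0.98 in batch 2, it passed in 7 of the 8 other settings that kept all embryos (the exception being nuclei thinned to 2000 UMIs, edgeR adjusted p = 0.0681), and it passed in 4 of the 11 fits that left out an embryo (edgeR adjusted p from 4.4e-04 to 0.0944). Of the 7 settings, that of at least 30 nuclei left out no embryo of Cluster 12 and repeated the main fit. In the same nuclei Gad2 and Dlx1 together held 38.9 to 177.0 CPM in saline and 17.6 to 118.1 CPM in EtOH embryos, and their part was not tested.

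In the other radial glial clusters Gabra2 did not pass the test. It was at -0.70 in cortical hem RGC Cluster 21 (SE 0.16, edgeR adjusted p = 0.0704, and -0.78 with 0.0124 without S2-4), where EtOH embryos held 88.7 to 117.6 CPM of Gabra2 and saline embryos 132.3 to 212.1 CPM, and DESeq2 and the fit with no filter on low counts called it. Gabra2 was at -0.59 in Cluster 3 (SE 0.24, edgeR adjusted p = 0.168), where it was called lower with the dam as a random block (limma voom) and without E1-2, but not with counts summed per dam. It was at -0.34 in Cluster 20 (SE 0.44, edgeR adjusted p = 0.867). In Cluster 2 the fit gave -0.03 (SE 0.23, edgeR adjusted p = 0.953), the mean of EtOH embryos was 267.1 CPM and that of saline embryos 261.3 CPM, and batch 1 and batch 2 gave -0.26 and 0.26. Over all RGC Gabra2 was at -0.23 (SE 0.23, interval -0.67 to 0.22, edgeR adjusted p = 0.537). Over the 25 clusters Gabra2 was lower in EtOH in 18 and higher in 7. Outside RGC it was called lower in Clusters 11 and 22 with no filter on low counts. Without S2-4 it was called lower in Cluster 11 (-0.44, edgeR adjusted p = 0.0090).

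Gabra3 fell in RGC by 0.60 on the log2 scale (SE 0.16, edgeR adjusted p = 0.0465), where 1.48% of genes tested were called lower. Saline embryos held 30.7, 35.2, 44.4, 34.4 and 24.8 CPM of Gabra3 and EtOH embryos 17.6, 28.3, 24.5, 27.9, 20.3 and 22.4 CPM, in the order above. S2-4 again lay among the EtOH embryos, and the other saline embryos above them. A Gabra3 UMI was found in 5.53% ± 1.61 of thinned RGC nuclei in saline and 4.29% ± 1.28 in EtOH embryos. Both batches gave a Gabra3 change of similar size, -0.52 and -0.54. The call held without S2-4 (-0.71, edgeR adjusted p = 0.0011) and was lost without any other embryo (edgeR adjusted p from 0.0663 to 0.116), with batch as a block (-0.60, edgeR adjusted p = 0.0595), with the dam as a random block (-0.57, limma adjusted p = 0.0588) and with nuclei thinned to 2000 UMIs (-0.41, edgeR adjusted p = 0.332). With counts summed per dam it passed (-0.61, edgeR adjusted p = 0.0253).

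The sum over RGC could move with the shares of its clusters, so each was read on its own. Mean Gabra3 was lower in EtOH in each of the 5 RGC clusters, none of which passed the test alone: -0.61 in Cluster 2 (edgeR adjusted p = 0.0633), -0.45 in Cluster 3 (0.178), -0.52 in Cluster 12 (0.306) and -0.81 in Cluster 20 (0.322). DESeq2 and the fit with no filter on low counts called Gabra3 lower in Cluster 2, and the latter also in Cluster 21. In Cluster 21, where Gabra3 had too few counts for the test, saline embryos held 33.7 CPM ± 9.3 and EtOH embryos 12.2 ± 7.5 (SD, n = 5 each). The summed Gad2 and Dlx1 level in RGC was 91.9 to 207.8 CPM in saline and 85.2 to 126.9 CPM in EtOH embryos, Gad2 was at -0.52 (edgeR adjusted p = 0.0723), and their part in the Gabra3 result was not tested. The cortical hem markers Rspo2 and Wnt8b, summed over all nuclei, held 54.0 to 245.3 CPM in saline and 6.32 to 98.7 CPM in EtOH embryos, and their part was not tested either. In neurons Gabra3 was at 0.01 in Int (SE 0.10, interval -0.18 to 0.20, edgeR adjusted p = 0.972) and at -0.18 in PN (SE 0.09, interval -0.35 to -0.0017, edgeR adjusted p = 0.184).

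**Figure D4:**
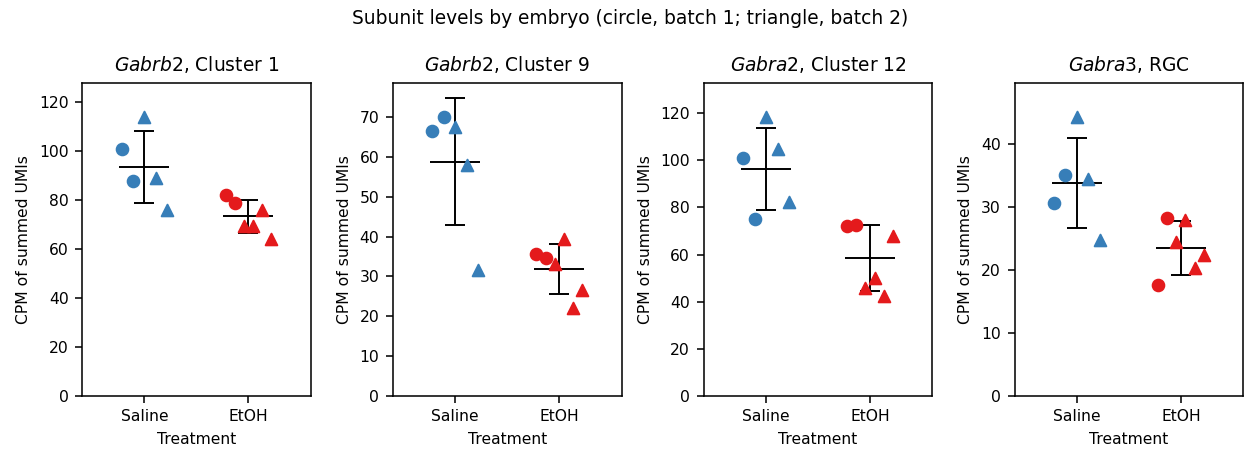
CPM of the 4 results that passed the test, by embryo and treatment (circles, batch 1; triangles, batch 2), with the mean and SD as bars. EtOH embryos lie below the saline embryos in Cluster 12, and in the other panels 1 saline embryo of batch 2, S2-4, lies among the EtOH embryos.

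The remaining members did not pass the test in any cluster or major cell type. Gabrb1 came closest, at -0.88 in Cluster 1 (SE 0.22, edgeR adjusted p = 0.0544), and was at -0.37 in PN (SE 0.15, edgeR adjusted p = 0.112) and -0.33 in IPC (SE 0.13, edgeR adjusted p = 0.143). Without S2-4 these 3 changes of Gabrb1 passed the test, at -1.04 (edgeR adjusted p = 1.4e-05), -0.46 (edgeR adjusted p = 0.0318) and -0.40 (edgeR adjusted p = 0.0287). So did Gabrb1 in Clusters 3 (-0.94, edgeR adjusted p = 1.2e-05), 5 (-0.60, 9.3e-04), 6 (-0.56, 0.0018) and 8 (-0.33, 0.0337). Calls were frequent over all genes in that fit: 19059 of 217112 pairs in clusters and 11363 of 67429 in major cell types. Of the pairs of all members, 14 of 170 and 6 of 39 were called, so these calls do not set Gabrb1 apart from other genes. With all embryos kept, Gabrb1 was called lower in Cluster 1 with DESeq2, with counts summed per dam and with no filter on low counts, in Cluster 3 with DESeq2 and with counts summed per dam, in PN with DESeq2, and in Clusters 6 and 10 with no filter. Over clusters, Gabrb1 was lower in 19 of 25, from -0.88 to 0.39. Gabrg3 was at 0.30 in migrating interneuron Cluster 5 (SE 0.08, edgeR adjusted p = 0.0593), where EtOH embryos held 316.3 to 423.4 CPM and saline embryos 241.3 to 306.8 CPM. There it was called higher when nuclei were thinned to 2000 UMIs. Without S2-4 it was not called in Cluster 5 (0.30, edgeR adjusted p = 0.0217), since the fold missed the limit. In IPC Gabrg3 was at -0.94 (SE 0.41, edgeR adjusted p = 0.192) and passed without S2-4 (-1.15, edgeR adjusted p = 0.0245). Gabrg1 was tested in 11 clusters and was higher in 8, up to 0.63 in interneuron Cluster 15 (SE 0.27, edgeR adjusted p = 0.330) among clusters with an unadjusted p under 0.05. With no filter on low counts, Gabrg1 in Cluster 15 was called higher. Gabra4 was tested in 21 clusters, with a lowest edgeR adjusted p of 0.251, and Gabra5 in 13, with a lowest of 0.433.

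A list of 35 further genes covered GABA synthesis and transport, other GABA-A and GABA-B receptor subunits, receptor assembly and chloride cotransporters. Of its 875 pairs with a cluster, 554 were tested, and 3 were called higher and 2 lower (0.902% of the pairs tested, close to the 0.792% of all genes). Their median log2 fold change was -0.02. Slc32a1, which loads GABA into vesicles, rose in interneuron Cluster 5 by a log2 change of 0.53 (SE 0.12, edgeR adjusted p = 0.0358) and in Int by 0.43 (SE 0.11, edgeR adjusted p = 0.0364). Gabbr2, a subunit of the metabotropic GABA-B receptor, rose in Cluster 5 by 0.55 (SE 0.13, edgeR adjusted p = 0.0407). In radial glia, Plcl2, a catalytically inactive phospholipase relative that binds GABA-A receptor beta subunits, fell by 0.38 in Cluster 2 (SE 0.08, edgeR adjusted p = 0.0409) and by 0.40 in RGC (SE 0.08, edgeR adjusted p = 0.0402). Gabarapl2, a relative of the receptor-trafficking protein Gabarap that acts in autophagy, rose by 0.72 in RGC (SE 0.18, edgeR adjusted p = 0.0447) and by 1.20 in callosal PN Cluster 22 (SE 0.24, edgeR adjusted p = 0.0273). Shisa6, which belongs to a family of receptor partners and is known from AMPA receptors, fell by 1.48 in Cluster 12 (SE 0.29, edgeR adjusted p = 0.0297). In major cell types, 141 of 175 pairs were tested, with 2 called higher and 1 lower (2.13%, against 3.75% of all genes). Of the 11 fits that left out an embryo, these calls passed in 1 to 3 (Plcl2 in RGC in 2 and Shisa6 in 3). The setting of at least 30 nuclei repeated the main fit of Plcl2 in RGC and of Shisa6. Counting it, Plcl2 in RGC passed in 8 of 8 other settings that kept all embryos and Shisa6 in 7 of 7. The others were lost in some: Slc32a1 and Gabbr2 in Cluster 5 (edgeR adjusted p = 0.137 and 0.106) and Slc32a1 in Int (0.105) with counts summed per dam, as were Plcl2 in Cluster 2 (0.135) and Gabarapl2 in Cluster 22 (0.130). Gabarapl2 did not pass with batch as a block in RGC (edgeR adjusted p = 0.0539) or in Cluster 22 (0.0521), and Plcl2 in Cluster 2 did not with the dam as a random block (limma adjusted p = 0.0542). With thinned nuclei Plcl2 in RGC was the only one of these calls left, and Shisa6 and Gabarapl2 in Clusters 12 and 22 had too few counts for that test.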

How the data were processed

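Raw UMI counts per nucleus were deposited by the authors as 1 table per embryo and cluster (275 tables, 23513 genes). The authors prepared 10x 3′ libraries from nuclei, aligned reads with Cell Ranger to mm10, filtered nuclei and genes, and clustered with Seurat after Harmony correction. The values were checked to be whole numbers. Doublets were neither called nor removed here, and 1 labelled saline embryo was not analysed here. The members and the list of further GABA genes were chosen with earlier results of these data known. Named genes were all members, the listed GABA genes called anywhere, and the 3 genes most like each member among genes with at least 10 CPM in at least 1 cluster, of which 1 is not reported here.

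Counts were summed per embryo and cluster (at least 10 nuclei; 9 pairs had fewer) or major cell type, and tested with edgeR 4.0.16 (TMM, filterByExpr, robust glmQLFit, treatment as the only term) after the script was tested on simulated data. SE is the log2 fold change over the square root of F, and 95% intervals are 1.96 SE wide on each side. Alternatives used RLE size factors, DESeq2 1.42.0, limma 3.58.1 (voom, dam as a random block), counts summed per dam, batch as a block, no filter, at least 30 nuclei, 2000 UMIs per nucleus (387 nuclei with fewer were left out) and each embryo left out in turn. To look for a library deposited under 2 names, a chi-square per gene was taken between littermates, which was 4.03 to 82.8, where repeated draws of 1 library would give 1. Depths were 14078316 to 83061737 UMIs per embryo. Errors are SDs between embryos and include counting error. Symbols of 23125 genes were matched to GENCODE M21, and promoters of all 8 members to RefSeq (GRCm38.p6). The script used R 4.3.3 and Python 3.11.15.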

Additional observations from a re-analysis of the deposited data

Results flagged for a closer look

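Of 86 groups of 5 or 6 embryos examined for the members, 4 held an embryo whose gap to the nearest value exceeded Dixon's 95% limit, and chance gives about 1 in 20. EtOH embryo E1-2 was the high one in 3 of them: Gabra2 in IPC was 302.0 CPM in E1-2 and 110.5 to 177.2 CPM in the other EtOH embryos, Gabra4 in the other clusters (11, 14 and 19) was 38.1 CPM against 12.6 to 21.9 CPM, and Gabrb1 in RGC was 439.7 CPM against 218.1 to 269.1 CPM. Saline embryo S2-2 had the low value of Gabrb2 in PN, 150 CPM against 205.6 to 224.9 CPM. None of these 4 belonged to a result that passed the test.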

How the results depend on the processing

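The number of member and cluster pairs called, 3 of 168 tested, became 7 of 200 with DESeq2, 6 of 183 with counts summed per dam, 14 of 200 with no filter on low counts and 1 of 107 with nuclei thinned to 2000 UMIs, and lay between 0 and 14 when an embryo was left out. Calls over all genes moved as well, from 1721 of 217253 to 5506 of 519300, 2112 of 292856, 10729 of 519300 and 687 of 116779. The call in thinned nuclei was Gabrg3 in Cluster 5, higher in EtOH, and none of the 3 calls was kept there. The 14 left-out calls, of 170 pairs tested, came without saline embryo S2-4, when 19059 of 217112 pairs over all genes were called. Leaving out any other embryo gave 0 or 1. In major cell types the count of 1 became 4 with DESeq2, 2 with counts summed per dam, and 0 with the dam as a random block (limma voom), with batch as a block and with thinned nuclei, and lay between 0 and 6 with an embryo left out, the 6 again without S2-4. These 6 were of 39 pairs tested, when 11363 of 67429 pairs over all genes were called. Calls over all genes in major cell types went from 2528 of 67335 to 5540 of 115058 with DESeq2, 1014 of 82666 per dam, 3922 of 67335 with limma voom, 1552 of 67335 with the batch block and 646 of 49866 with thinned nuclei. Where these 3 counts were 0, unadjusted p was under 0.05 for 5, 8 and 6 of the pairs tested, and where leaving out an embryo gave 0, for 20 to 28 pairs in clusters and 3 to 7 in major cell types. The cause of these shifts was not tested. No called fold change of a member or of a further GABA gene reversed: 92 values of these 12 results kept their call under an alternative and 134 lost it with the direction kept. The 92 include repeats of the main fit, where the limit of at least 30 nuclei left out no embryo. With batch as a block, 2 member and cluster pairs were called. Levels in the highest cluster moved by less than their SD in 100 of 100 alternatives, and shares moved by more only when unthinned (8 of 88). A mean cannot move by its SD when 1 embryo is left out or the median is taken. Most of these alternatives therefore could not count as moved. Replicate numbers name embryos within a dam and pair no samples. Gabra5 and Gabrg1 had too few UMIs for the test in 12 and 14 of 25 clusters.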
